A study of Solanum lycopersicum and Arabidopsis thaliana and Cannabis sativa with 28 samples.

Results

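Broad tomato H3K4me3 domains were taken as the domains of the deposited H3K4me3 list that spanned at least 4000 bp (20 windows of 200 bp, counting both end positions) and that held at least 1.2 times as many H3K4me3 reads as IgG reads. They were thus chosen by 2 measured values, length and the ratio of H3K4me3 to IgG reads. By this rule 1196 of the 18758 listed domains were broad (6.38%, 95% Wilson interval 6.04 to 6.73%), and the remaining 17562 are called other domains. Of the 1241 domains that were long enough, 45 (3.63%) were left out because their ratio of H3K4me3 to IgG reads was below 1.2. This is a ratio of raw reads, not scaled for the depth of the libraries. The share of all listed domains that reached the read ratio of 1.2 was 96.8%, so that length did most of the choosing.

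The data came from PHILO ChIP-seq, a chromatin immunoprecipitation protocol for plants that works in plates and from little tissue. All libraries were made from 2-week-old whole seedlings of the tomato Micro-Tom, the only genotype given. There were 4 groups of 3 libraries: H3K4me3 from untreated seedlings, H3K9ac from seedlings exposed to jasmonic acid (JA) for 2 h (2 h JA), IgG from untreated seedlings, and H3K9ac from seedlings without JA (ctrl). Per the study's methods, tomato seedlings received JA as a gas in a transparent container, and the compound named for Arabidopsis is methyl jasmonate. The time and the ctrl group are given in the sample titles, whereas the treatment field of the labels reads none for every tomato library. The 3 libraries of each group were merged before domains were called, so that each domain has a single pooled read count per group, there is no replicate error, and no test between groups was possible. Whole seedlings hold many cell types, so that more cells with a mark and more of the mark per cell cannot be told apart.

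H3K4me3 and H3K9ac are histone marks of active chromatin. In plants H3K4me3 typically lies over the beginning of transcribed genes, as a peak after the start site, and H3K9ac, an acetylation, commonly covers the same promoters and gene starts. JA is a hormone of wounding and defense, which frees the transcription factor MYC2 from its JAZ repressors and thereby switches on defense genes such as protease inhibitors. IgG binds no histone mark and shows the background of the assay.

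The broad domains were long but not dense. Their median length was 4600 bp (quartiles 4200 and 5400 bp, maximum 13800 bp), against 1600 bp in the other domains. A broad domain held a median of 529 H3K4me3 reads (range 87 to 2358) and 92 IgG reads, and an other domain held 271 H3K4me3 reads and 33 IgG reads. Per kb this order was turned round. The broad domains had a median of 108.6 H3K4me3 reads per kb (95% binomial interval of the median 106 to 110.75, quartiles 83.2 and 136.6), against 148.3 in the other domains (quartiles 85.7 and 204), while the IgG reads per kb were close to each other, with 19.3 and 19.2. The median ratio of H3K4me3 to IgG reads was 5.65 in the broad domains (quartiles 4.13 and 7.28) and 7.76 in the other domains. A ratio of at least 10 was seen in 63 broad domains (5.27%) and in 5615 other domains (32.0%). Together the broad domains covered 6.07 Mb of the 38.0 Mb listed (16.0%) and held 666588 of the 5337518 H3K4me3 reads in listed domains (12.5%), and 119008 of the 893709 IgG reads (13.3%). Length and read ratio chose these domains, and the reads per kb come from the same libraries, so these values describe the selection and carry no test. Intervals here and below cover counting error or the spread between domains only, and domains of the same merged libraries are not replicates.

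**Figure D1:**
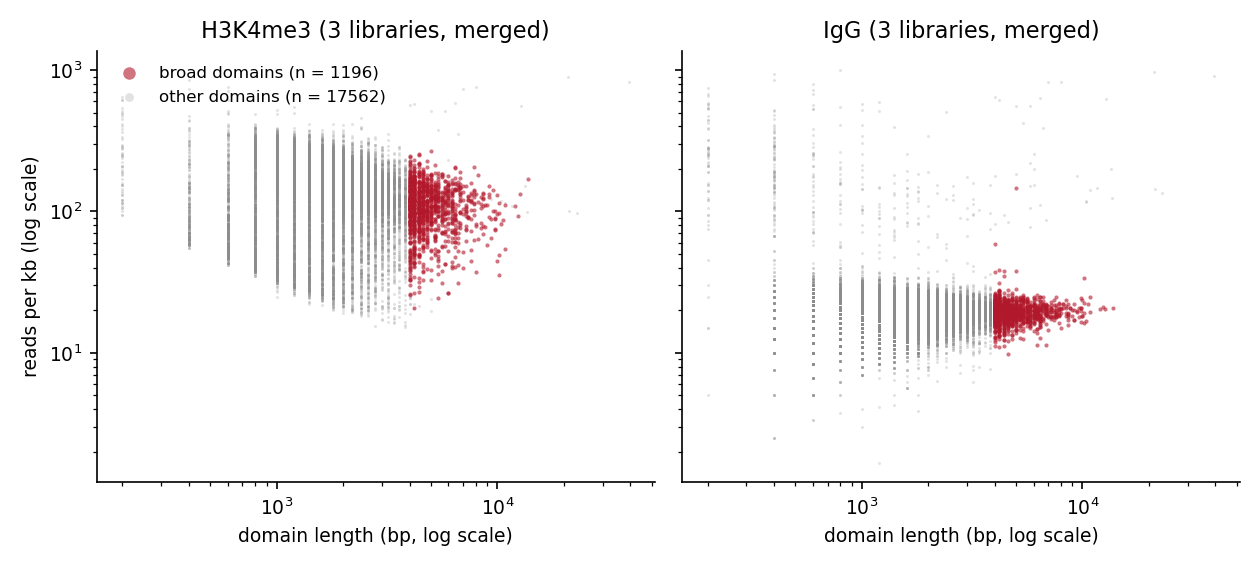
Length of each tomato H3K4me3 domain (x axis, bp, log scale) against its H3K4me3 reads per kb (left) and IgG reads per kb (right; y axis, log scale), with the 1196 broad domains in red and the 17562 other domains in grey, each point a domain with the reads of 3 merged libraries. The broad domains lie within 20.7 to 268.4 H3K4me3 reads per kb, and their IgG reads per kb stay near 19.3 with few exceptions, whereas grey points at high IgG reads per kb occur at all lengths plotted. The grey points include the 45 long domains that the read ratio left out.

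Reads per kb were highest at 1000 to 1800 bp, were lower in longer domains and then nearly levelled off. Among domains past the read ratio, the median was 84.4 H3K4me3 reads per kb in those under 1000 bp and 180.6 in those of 1000 to 1800 bp, the highest of the 8 length classes. It was 142.3 at 2000 to 2800 bp and 120.7 at 3000 to 3800 bp. Within the broad domains it differed little between classes, with 108.0 at 4000 to 4800 bp (729 domains), 110.7 at 5000 to 5800 bp (239 domains), 106.6 at 6000 to 7800 bp (177 domains) and 98.0 at 8000 bp and over (51 domains). Across the 1196 broad domains, the Spearman correlation of length with H3K4me3 reads per kb was accordingly -0.03, and that of H3K4me3 with IgG reads per kb was -0.14. These correlations are descriptions over domains that share the same merged libraries. The broad domains were thus not a class set apart from the domains just below the length limit. The 197 domains of 4000 bp that passed the read ratio, the shortest that the rule takes in, had medians of 435 H3K4me3 reads, 78 IgG reads and 108.75 H3K4me3 reads per kb, and the 240 such domains of 3800 bp, just below the limit, had 414, 73 and 108.9.

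**Figure D2:**
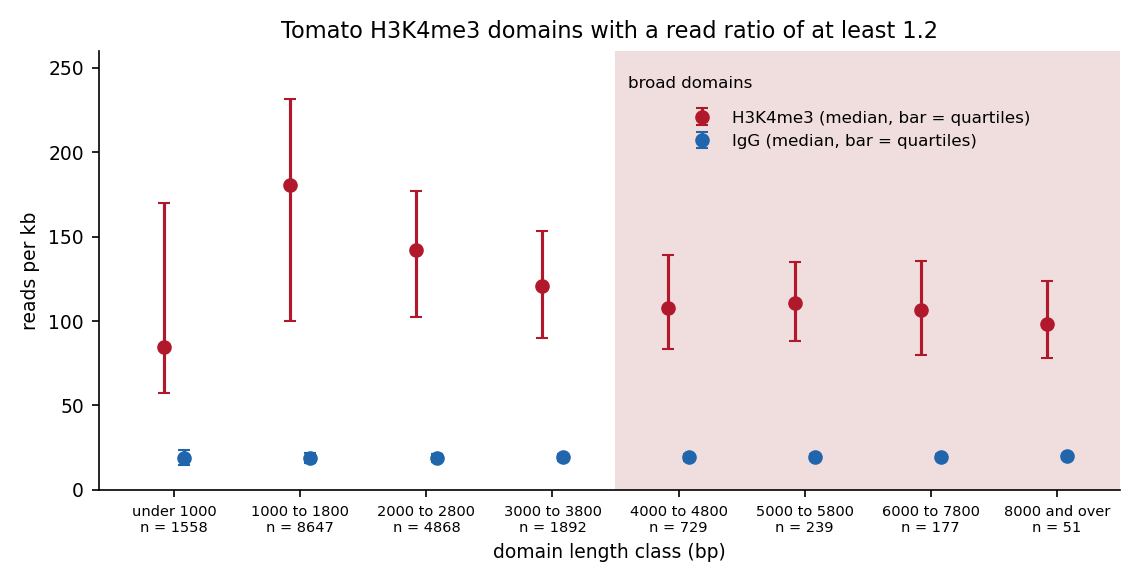
Median reads per kb (y axis) of tomato H3K4me3 domains in 8 length classes (x axis, bp, with the number of domains), for H3K4me3 (red) and IgG (blue); bars span the quartiles between domains, and the shaded classes are the broad domains. H3K4me3 peaks at 180.6 reads per kb in the class of 1000 to 1800 bp and lies between 98.0 and 110.7 in the 4 shaded classes, while IgG stays level.

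The longest broad domain, chr1:89349600-89363399, spanned 13800 bp of chromosome 1 in the Micro-Tom assembly SLM_r2.0 (coordinates as deposited) and held 2358 H3K4me3 reads and 287 IgG reads. With 170.9 H3K4me3 reads per kb (95% Poisson interval 164.0 to 177.9) it was both long and dense. The next in length, chr1:92192000-92204599, had 1664 H3K4me3 and 257 IgG reads, or 132.1 H3K4me3 reads per kb. The 3 that followed were close to the median density of the broad domains or below it, with 93.3 H3K4me3 reads per kb at chr1:77906600-77918999, 109 at chr3:60924400-60936399 and 111.9 at chr1:843000-853799. Of these 5, 4 lay on chromosome 1.

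The densest broad domain differed from the rest by its background. At chr4:1089000-1093999 there were 1342 H3K4me3 reads, or 268.4 per kb, but also 737 IgG reads, or 147.4 per kb, a ratio of 1.82, and no listed H3K9ac domain overlapped it. It was the only broad domain with over 100 IgG reads per kb, against 255 (1.45%) of the other domains. Over 30 IgG reads per kb were found in 9 of the 1196 broad domains, a limit chosen after the values were seen, and the next highest was chr12:5653200-5657199 with 58.5. The share of other domains above 30 was not counted. The read ratio of the rule itself left out 45 long domains, with a median of 143.3 IgG reads per kb. These counts are thus not read as a low background particular to broad domains. The next 4 in density had a low background. They were chr1:93232800-93237199 with 1130 H3K4me3 and 77 IgG reads (256.8 H3K4me3 reads per kb), chr7:64583000-64587399 with 1097 and 75 (249.3), chr7:61969200-61973199 with 988 and 66 (247.0), and chr2:55548800-55552799 with 969 and 84 (242.25). These 4 domains were near the minimum length, at 4000 or 4400 bp.

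At the other end stood domains whose H3K4me3 read counts were little above their IgG read counts. The counts are not scaled for depth, and the ratio of H3K4me3 to IgG reads went down to 0.67 over all listed domains. A ratio near 1 thus does not show that a domain was near background. The fewest H3K4me3 reads per kb, 20.7, were found at chr1:72847600-72851799, with 87 H3K4me3 and 66 IgG reads. It was followed by chr8:65878600-65883999 with 132 and 99 reads, chr4:51996400-52000399 with 103 and 65, chr9:63468400-63472399 with 105 and 84, and chr6:46716000-46720199 with 111 and 80. The read ratios closest to the limit from inside were 1.23 (chr10:59532000, 160 H3K4me3 and 130 IgG reads), 1.25 (chr9:63468400) and 1.27 (chr7:1787200), and from outside 1.18 (chr1:74412800, 97 and 82 reads), 1.15 (chr8:3493400) and 1.14 (chr9:4187600), each given by its start. The 45 long domains below the limit had a median of 143.3 IgG reads per kb and a median read ratio of 0.88, and lay in regions with few listed domains (a median of 12 within 500 kb).

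Broad domains lay nearer to chromosome ends and in denser stretches of H3K4me3 than the other domains. The median distance to the nearest chromosome end, taken as the first or last listed tomato domain of either mark, was 3.98 Mb (95% binomial interval 3.66 to 4.29 Mb) for the broad domains and 5.47 Mb for the other domains. Broad domains made up 335 of the 4095 domains (8.18%) within 2 Mb of an end, and this share was lower with each step inward, down to 48 of 1943 (2.47%, Wilson interval 1.87 to 3.26%) at 20 Mb and over. The number of other H3K4me3 domains within 500 kb on either side had a median of 81.5 around broad domains and 70 around other domains. Fewer than 20 neighbours within that distance were found around 86 broad domains (7.19%) and 3388 other domains (19.3%). By this density the share of broad domains was 2.48% at under 20 neighbours, 4.58% at 20 to under 50, 6.62% at 50 to under 80, 8.44% at 80 to under 110 and 12.1% (79 of 655) at 110 and over. Distance to the end and density were not separated from each other.

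**Figure D3:**
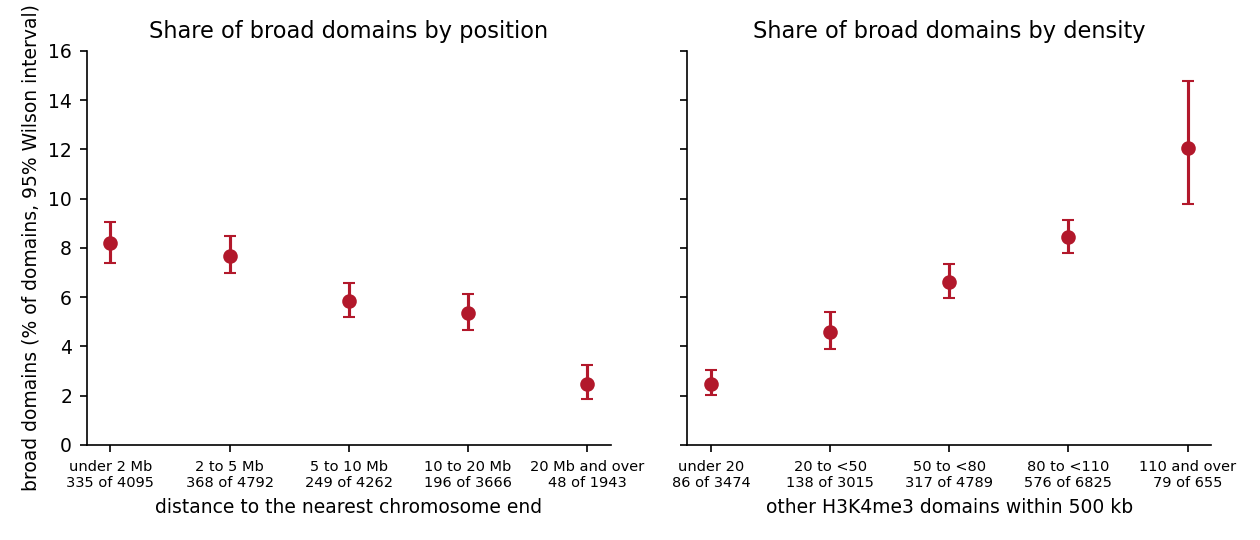
Share of listed H3K4me3 domains that are broad (y axis, %, points with 95% Wilson intervals) by distance to the nearest chromosome end (left) and by the number of other H3K4me3 domains within 500 kb (right), with the broad and all domains of each class under the axis. The share is 8.18% within 2 Mb of an end and 2.47% at 20 Mb and over, and it is 2.48% at under 20 neighbours and 12.1% at 110 and over.

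All 12 chromosomes carried broad domains. Their share ranged between 5.33% on chromosome 11 (55 of 1032) and 8.21% on chromosome 3 (186 of 2266), and chromosome 1 held the largest number, with 206 of 2785 (7.40%). Chromosomes 1 and 3 were thereby the 2 with the largest shares, and the Wilson intervals of chromosomes 3 (7.15 to 9.41%) and 11 (4.12 to 6.87%) did not overlap. Chromosomes 3 and 11 were picked as the highest and lowest of 12 after the shares were seen, so this is no test of a difference. The median H3K4me3 reads per kb of the broad domains were between 101 and 112 on 11 chromosomes and 126.5 on chromosome 10. In each of the 5 density classes the broad domains had fewer H3K4me3 reads per kb than the other domains, for example 98.0 against 145.6 at under 20 neighbours and 100.9 against 158.5 at 110 and over.

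The gap between a broad domain and the nearest listed domain on either side was short, but their length has to be kept in mind. Edge to edge the median gap was 4.0 kb (3.8 to 4.4 kb) for broad domains and 5.2 kb for other domains. Between midpoints the order was the opposite, with 7.8 kb and 7.2 kb. Within density classes the edge gaps of broad and other domains were closer to each other, with 3.4 kb and 3.6 kb at 80 to under 110 neighbours and 4.2 kb and 4.6 kb at 50 to under 80. The most isolated broad domain, chr6:6294800-6299399, was 419.4 kb and 312.6 kb from its neighbours and held 545 H3K4me3 and 83 IgG reads. It was followed by chr5:36775400-36780599 (273.8 and 823.0 kb, 783 and 111 reads) and chr11:31753600-31757799 (204.8 and 337.2 kb, 199 and 90 reads). Isolation did not mean weak signal in the first 2 of these, which had more H3K4me3 reads than the median broad domain.

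A listed domain directly beside a broad domain was itself broad more often than one beside an other domain. Of the neighbours of broad domains, 216 of 2391 (9.03%, Wilson interval 7.95 to 10.2%) were broad, against 2175 of 35101 (6.20%, 5.95 to 6.45%) of the neighbours of other domains. The 216 count each of the 108 adjacent pairs of broad domains from both sides, and the Wilson interval does not allow for this. Broad domains were more frequent in dense stretches, and the part of density in this share was not tested. Most broad domains stood alone (989), 92 runs held 2, 5 runs held 3 and 2 runs held 4. Both runs of 4 lay on chromosome 6, at chr6:34759000-34824399 (65.4 kb, 1924 H3K4me3 and 354 IgG reads in the 4 domains) and at chr6:42357800-42388999 (31.2 kb, 1636 and 393 reads). The runs were singled out after the values were seen. The 108 adjacent pairs had a median gap of 5900 bp, and 5 of them were 800 bp apart, the smallest gap in the list. Among these were chr1:93717200-93722399 and chr1:93723200-93728799, with 647 and 706 H3K4me3 reads, and chr1:93777000-93781199 and chr1:93782000-93785999, with 283 and 556. A further pair at this distance was chr3:65322800-65332599 and chr3:65333400-65338599. In each of the 3 pairs a single H3K9ac domain overlapped both members, although it covered only 96.2% of chr3:65333400-65338599.

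Most broad domains were also covered by H3K9ac. A listed H3K9ac domain overlapped 1068 of the 1196 (89.3%, Wilson interval 87.4 to 90.9%), against 14576 of the 17562 other domains (83.0%), and 863 broad domains (72.2%) lay wholly within H3K9ac, against 71.4% of the other domains. This H3K9ac list was made by calling the merged 2 h JA library against the merged ctrl library. H3K9ac domains that were lower after JA, once scaled for depth, are not analysed here, and an absent overlap does not show that H3K9ac is absent. In each of the 5 density classes the overlapped share was larger for broad than for other domains, from 88.4% against 77.7% at under 20 neighbours to 91.1% against 89.2% at 110 and over. The share also followed length, with 72.3% under 1000 bp, 84.5% at 1000 to 1800 bp, 87.0% at 2000 to 2800 bp and 89.3% at 3000 to 3800 bp, just below the limit, among domains past the read ratio. Within the broad domains it was 88.9% at 4000 to 4800 bp.

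The H3K9ac domains over broad domains were themselves long. Their median length was 11800 bp, against 5800 bp over other domains, and they held medians of 1292.5 reads in 2 h JA and 1254.5 in ctrl, against 592 and 572 over other domains. Among domains past the read ratio, the median H3K9ac length followed that of the H3K4me3 domain. It was 4200 bp over H3K4me3 domains under 1000 bp and 9200 bp at 3000 to 3800 bp, just below the limit. At 4000 to 4800 bp it was 10500 bp, so the contrast is not particular to broad domains. Per kb the levels were similar, with 111.4 ctrl reads per kb over broad domains and 106.5 over other domains. A broad domain filled a median of 42.0% of its H3K9ac domain, and an other domain 30%. Long H3K9ac domains often held several H3K4me3 domains, and 527 of the 1068 broad domains (49.3%) were alone in theirs, against 9192 of the other domains (63.1%). When alone, a broad domain had an H3K9ac domain of 7200 bp in the median, of which it filled 65.6%, and an other domain one of 3600 bp, of which it filled 47.3%. In these the ctrl reads per kb were 109.5 for broad and 110.3 for other domains, so the small difference above was not seen. The 1068 broad domains lay in 1046 H3K9ac domains, as some shared one and 29 met 2.

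The 128 broad domains without a listed H3K9ac domain had less H3K4me3. Their median was 87.0 H3K4me3 reads per kb (75.5 to 95.5), against 110.7 (108.2 to 114.2) in the broad domains with one, while IgG was alike at 19.6 and 19.3 reads per kb. Their density of neighbours (79.5 and 82) and gap to the nearest domain (4.2 and 4.0 kb) were close to those of the broad domains with H3K9ac. The other domains behaved in the same direction, with 96.9 H3K4me3 reads per kb without and 157.3 with an H3K9ac domain. The longest broad domains without H3K9ac were chr4:52355800-52365999 (10200 bp, 503 H3K4me3 and 230 IgG reads), chr7:66806800-66816599 (9800 bp, 729 and 162 reads) and chr1:92680800-92689999 (9200 bp, 1173 and 186 reads). The last of these had more H3K4me3 reads per kb than the median broad domain. Across the 1068 broad domains with H3K9ac, the Spearman correlation of H3K4me3 reads per kb with H3K9ac ctrl reads per kb was 0.28, against 0.41 across the 14576 other domains. Both are descriptions over points that share libraries, and many points share an H3K9ac domain.

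H3K9ac over broad domains had nearly the same number of reads in 2 h JA seedlings as in ctrl seedlings. Its log2 read ratio of JA-exposed to ctrl seedlings, not scaled for the depth of the libraries, had a median of 0.03 (95% binomial interval 0.025 to 0.039, quartiles -0.04 and 0.10, range -0.18 to 0.88) over broad domains and 0.05 over other domains, and 0.08 over all 17455 listed H3K9ac domains. No more reads in 2 h JA than in ctrl were found over 415 broad domains (38.9%) and over 4681 other domains (32.1%). These shares count an H3K9ac domain once for each H3K4me3 domain paired with it. Over all listed H3K9ac domains, each counted once, the first quartile of the log2 ratio was 0. The H3K9ac list was called for 2 h JA over ctrl, and its lowest log2 ratio was -0.18 over all 17455 domains. With such a list and no scaling for depth, even counts do not show that H3K9ac was unchanged. The ratio was higher in the median where the H3K9ac domain had few ctrl reads, which are its denominator. The cause of this trend was not tested. Within classes of ctrl reads, the medians of H3K9ac domains holding a broad domain and of those holding only other domains were 0.17 and 0.14 at under 250 ctrl reads, 0.06 and 0.07 at 250 to under 500, 0.05 and 0.03 at 500 to under 1000, 0.03 and 0.01 at 1000 to under 2000, and 0.00 and 0.02 at 2000 and over. The order of the groups thus changed between classes, and no direction is given for broad against other domains. These classes were chosen after the data were seen.

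**Figure D4:**
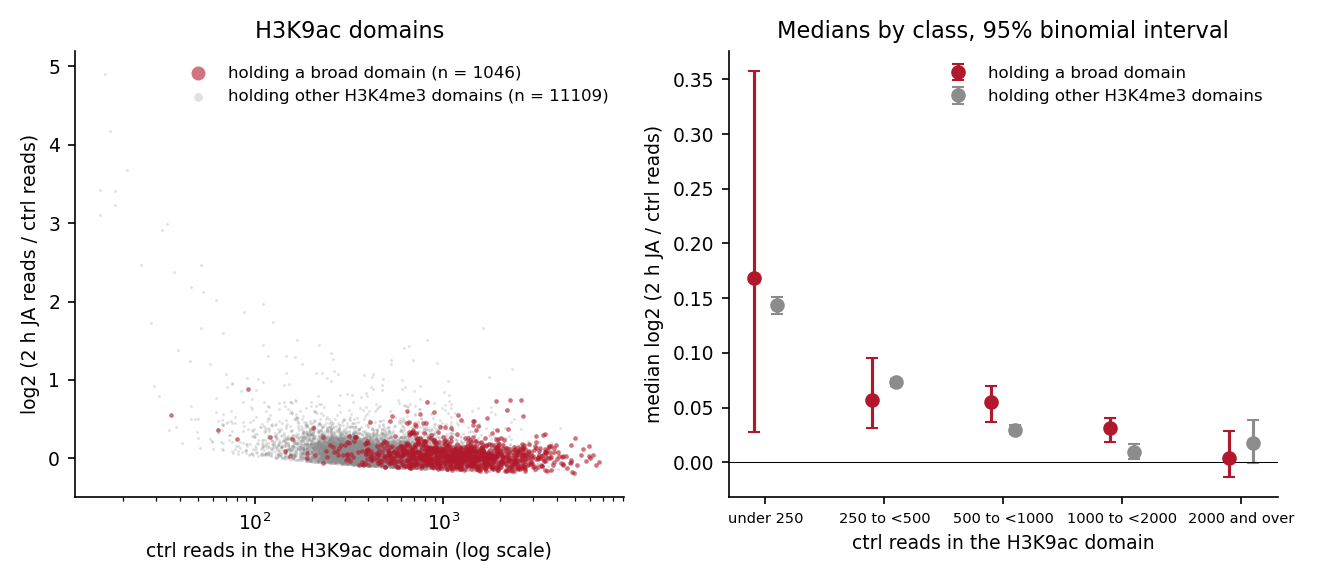
Log2 read ratio (2 h JA over ctrl) of H3K9ac domains (y axis) against their ctrl reads (x axis, log scale; left) and its median with the 95% binomial interval in 5 classes of ctrl reads (right), for the 1046 H3K9ac domains holding a broad domain (red) and the 11109 holding other H3K4me3 domains (grey); the 5300 that hold none are not drawn. Of the points at least 0.5 above the median of all listed H3K9ac domains, 84 of 162 grey and 1 of 8 red ones have under 250 ctrl reads, and the red median is above the grey one in 3 classes and below it in 2.

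A raised ratio was rare over broad domains. Among all listed H3K9ac domains, 2.71% had a log2 ratio at least 0.5 above the median of that list. This was the case for 9 of the 1068 broad domains with H3K9ac (0.843%, Wilson interval 0.444 to 1.59%) and for 214 of the other domains (1.47%). At a margin of 0.3 there were 32 broad domains (3.00%) and 523 other domains (3.59%), with 6.85% of all listed H3K9ac domains. At a margin of 1 there were 0 broad domains (Wilson upper limit 0.358%, or 0.281% by the rule that a count of 0 allows up to 3) and 62 other domains (0.425%), with 0.539% of all. Of the 473 H3K9ac domains raised by at least 0.5 in the whole list, 303 held no H3K4me3 domain, and 263 of these had under 250 ctrl reads, so that these shares are not read as a difference of broad domains.

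The highest ratio over a broad domain was 0.88 (95% Clopper-Pearson interval 0.50 to 1.26) at chr7:6204000-6208199, with 169 reads in 2 h JA and 92 in ctrl. These few reads came from an H3K9ac domain of 1600 bp, and the 2 H3K9ac domains that met this broad domain covered 66.7% of it. The next ones rested on many more reads. At chr1:92302800-92309199 there were 4315 reads in 2 h JA and 2587 in ctrl, a log2 ratio of 0.74. The nearby broad domains chr1:1366400-1370599 and chr1:1388800-1394599 shared an H3K9ac domain of 29600 bp with 3750 reads in 2 h JA and 2250 in ctrl, also 0.74. At chr3:2664600-2669799 there were 3159 and 1897 reads, again 0.74. All 9 raised broad domains had a lower H3K9ac level in ctrl (57.5 to 84.0 reads per kb) than the median broad domain (111.4), and the ctrl reads are the denominator of the ratio. What lay behind this was not tested. The H3K4me3 of the 9 domains in untreated seedlings spanned 49.8 reads per kb at chr1:1366400 to 151.9 at chr3:2664600, so they were neither all dense nor all sparse. The lowest ratio, -0.18, was that of the H3K9ac domain of 33400 bp shared by the pair chr3:65322800-65332599 and chr3:65333400-65338599, with 4352 reads in 2 h JA and 4940 in ctrl. Close to it were chr1:555200-559399 (4279 and 4815 reads, -0.17), chr10:64401800-64409399 (2411 and 2709, -0.17) and chr3:59483600-59491399 (2068 and 2315, -0.16). The value of -0.18 was also the lowest of all listed H3K9ac domains. As the list was called for 2 h JA over ctrl and the ratio was not scaled for depth, these values do not show a loss of H3K9ac.

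The 5 longest broad domains differed in their H3K9ac read ratio. The H3K9ac domain over chr1:89349600-89363399 spanned 34400 bp and 5 H3K4me3 domains and held 4638 reads in 2 h JA and 4784 in ctrl. Over chr1:92192000-92204599 the counts were 3261 and 3259, over chr3:60924400-60936399 they were 2494 and 2697, and over chr1:77906600-77918999 they were 708 and 682. The log2 ratio at chr3:60924400-60936399 was -0.11 (Clopper-Pearson interval -0.19 to -0.03), which is not scaled for depth and is not read as a loss. The one with the most reads gained was chr1:843000-853799, with 3773 reads in 2 h JA and 3094 in ctrl, a log2 ratio of 0.29 (0.22 to 0.36), which is 0.21 above the list's median. Of the isolated broad domains, chr6:6294800-6299399 (749 and 747 reads) and chr5:36775400-36780599 (1157 and 1148) had nearly even counts, and chr11:31753600-31757799 had 1020 reads in 2 h JA and 1094 in ctrl (log2 ratio -0.10).

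There were 4 H3K9ac domains of the list with gene names in the study, and 1 of them held a broad H3K4me3 domain. It is the domain named for SlJAZ2, a JAZ repressor of JA signalling, at chr1:671000-690199, with 3845 reads in 2 h JA and 2654 in ctrl, a log2 ratio of 0.53 (0.46 to 0.61). The gene name rests on the study's list alone, since a RefSeq table of another Micro-Tom assembly release places a gene of that name on a different chromosome. Within it lay 3 H3K4me3 domains, of which the middle one, chr1:677000-683199, was broad (6200 bp, 744 H3K4me3 and 128 IgG reads, 120.0 H3K4me3 reads per kb, ratio 5.81). It was close to the median broad domain in both measures. Over the whole list, 1046 of the 17455 H3K9ac domains (5.99%) held a broad domain. Of those with at least 2000 ctrl reads, 213 held a broad domain and 217 held only other H3K4me3 domains. The study presents the 4 named loci for their JA-induced H3K9ac. Neither the 1 of 4 nor the ratios of these loci are thus read as a result about broad domains.

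The other 3 named H3K9ac domains had larger ratios and held only other H3K4me3 domains. The protease inhibitor cluster Solyc09g084450 to Solyc09g084490 had 3577 reads in 2 h JA and 1745 in ctrl (log2 ratio 1.04) and held 4 H3K4me3 domains of 1600 to 2800 bp. The cluster Solyc09g089490 to Solyc09g089540 had 5138 and 1624 reads (1.66) and 4 H3K4me3 domains of 1400 to 2600 bp. The domain of Solyc12g096770, Solyc12g096790 and Solyc12g096800 had 5100 and 2324 reads (1.13) and 6 H3K4me3 domains of 1000 to 3400 bp. The nearest broad domain to the second cluster was 4.8 kb away, chr9:66708800-66713199, and it was chosen after the values were seen. It was also the nearest to the first cluster, at 76.2 kb. Its own H3K9ac domain had 1348 reads in 2 h JA and 818 in ctrl (0.72, interval 0.59 to 0.85), which makes it 1 of the 9 raised broad domains, and it held 365 H3K4me3 and 87 IgG reads. The nearest one to the genes on chromosome 12, chr12:67789400-67793799, was 9.2 kb away and had 1567 and 1485 H3K9ac reads, a log2 ratio equal to the list's median to 2 decimals.

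**Figure D5:**
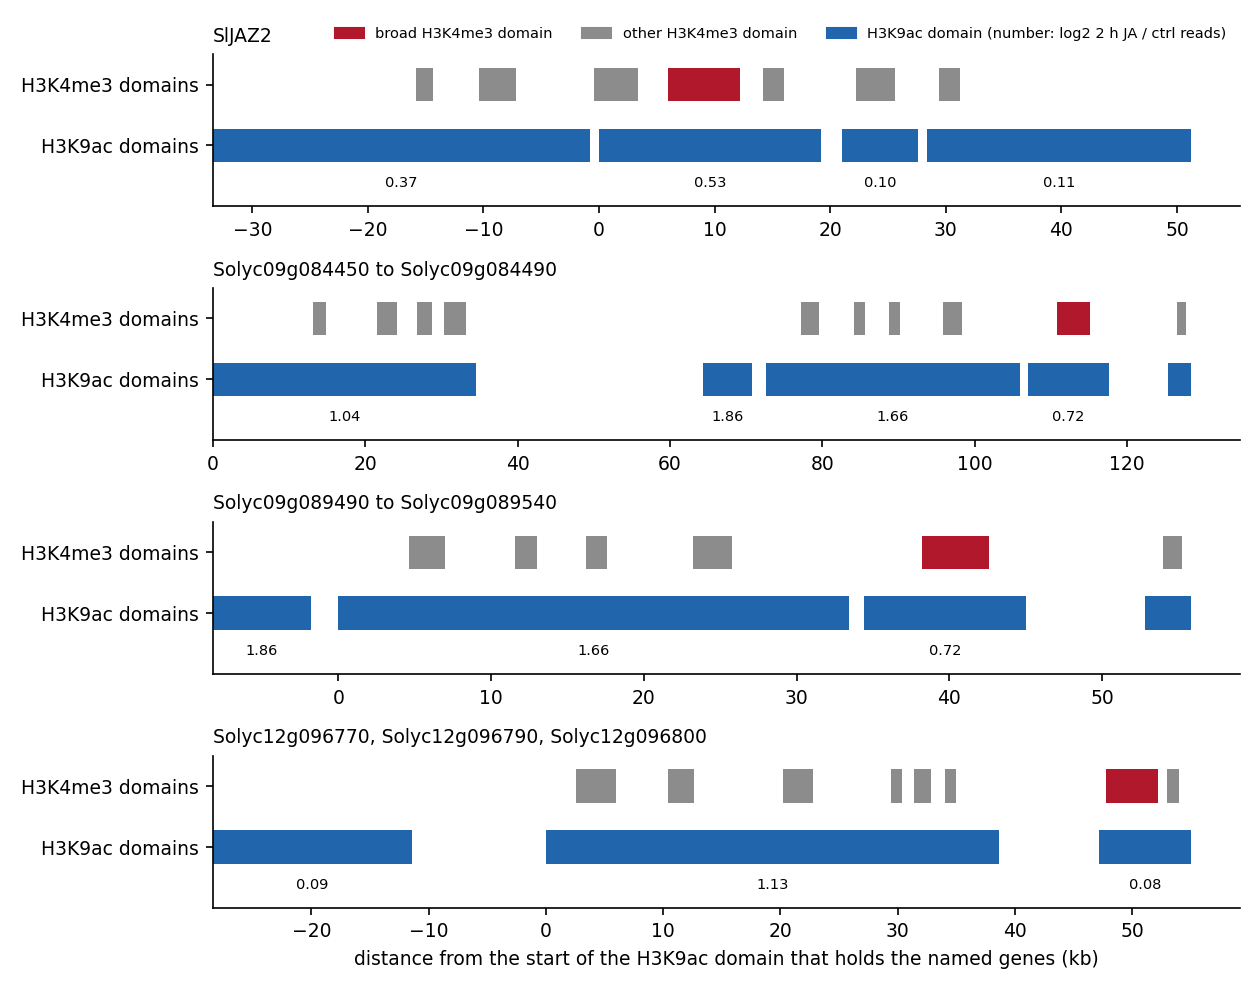
H3K4me3 domains (upper row of each panel; broad in red, other in grey) and H3K9ac domains (lower row, blue, with the log2 read ratio, 2 h JA over ctrl, under those longer than 4 kb) around the 4 H3K9ac domains that carry gene names; the x axis is the distance in kb from the start of the named H3K9ac domain, on a scale of its own in each panel. The red block lies inside the named H3K9ac domain, at a ratio of 0.53, only in the SlJAZ2 panel, and in the panel of Solyc09g089490 to Solyc09g089540 it lies 4.8 kb beyond it, over an H3K9ac domain with a ratio of 0.72. The 2 panels of chromosome 9 overlap and show the same red block, which lies 76.2 kb from the named H3K9ac domain of Solyc09g084450 to Solyc09g084490.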

How the data were processed

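PHILO ChIP-seq of tomato was analysed through the 2 deposited tomato domain tables. Per the study's methods, the authors aligned the reads to SLM_r2.0 with Bowtie2 (version 2.4.1), pooled the 3 libraries per group and then ran epic2 (the submitters' processing notes list SICER 0.0.52 and deepTools 3.5.2, and no tomato build). The values are whole read counts per domain in the merged libraries, deposited by the authors without normalization. For H3K4me3 the control was IgG, and for H3K9ac 2 h JA was called against ctrl. Window and gap settings and duplicate handling are not given in the sources used here; all starts are multiples of 200 bp. The labels describe sonication, whereas the methods give MNase digestion for tomato. The authors' fold change, p-value, FDR and score columns were not used.

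Reads per kb were reads over the domain length. H3K9ac was joined by an overlap of at least 1 bp, and the H3K9ac domain with the longest overlap was used. JA change was the log2 ratio of reads. Depth varied with the domain: broad domains held at least 87 H3K4me3, 45 IgG and 80 H3K9ac ctrl reads. Intervals (95%) were Wilson for shares, Clopper-Pearson for read ratios, Poisson for reads per kb, and binomial order statistics for medians. Tools were matplotlib 3.10.9, SciPy 1.17.1, NumPy 2.4.6, pandas 2.3.3 and Python 3.11.15. The functions were tested on simulated data. No test between groups was made.

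Named domains were the 5 longest, the 5 with most and with fewest H3K4me3 reads per kb, the 5 with the highest and lowest JA ratio (at least 100 H3K9ac reads), the 3 longest without H3K9ac, 3 closest pairs, the 3 most isolated, those nearest to the thresholds, and those in gene-named H3K9ac domains. The members and lists were chosen with earlier results of these data known. Alternatives changed the size and ratio limits, the reads compared, the distance measure and the H3K9ac domains used. A Micro-Tom gene table and the genome at hand were of other assemblies and were not used here for coordinates, so no gene annotation or sequence is given. Hemp and Arabidopsis were not analysed here.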

Additional observations from a re-analysis of the deposited data

How the results depend on the processing

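No paired analysis was possible because the replicates were merged before deposit and the columns carry no replicate number, and for the same reason no replicate could be left out. The rule took in 3088 domains at a minimum length of 3000 bp and 467 at 5000 bp; without a read ratio (1241), at a ratio of 2.4 (1118) or after joining domains within 1000 bp (1594) the number stayed within 1.5 times of 1196. The ratio of broad to other domains in median H3K4me3 reads per kb was 0.732, and 0.752 from summed reads. With IgG, scaled to the same listed total, subtracted, the medians were -6.04 for broad and 34.0 for other domains (ratio -0.178), where the scaling itself removes the mean. The difference in domains within 500 kb, 11.5, was 14 without chromosome 1 and 14 at a minimum length of 5000 bp, and 59.5 within 2500 kb. The difference in gap, -1.2 kb, was -1.6 kb at 5000 bp and 0.6 kb between midpoints, which contain the longer bodies of the broad domains. The ratio in H3K9ac ctrl reads per kb, 1.05, was 1.08 at 5000 bp and 0.993 where the H3K9ac domain held a single H3K4me3 domain. The difference in median log2 ratio of 2 h JA to ctrl, -0.018, was -0.027 with each H3K9ac domain counted once and -0.027 with a single H3K4me3 domain; it was positive at ctrl reads between the quartiles of broad domains (0.017), under 250 (0.027), at 500 to under 1000 (0.023) and at 1000 to under 2000 (0.016). The cause of these changes was not tested. Raised broad domains numbered 32 (3.00%) at a margin of 0.3, with 6.85% of all listed H3K9ac domains. At a margin of 0.5 they numbered 9 (0.843%), with 2.71% of all listed H3K9ac domains, and 4 at 5000 bp. At 5000 bp only 467 domains were broad, 89.9% of them with H3K9ac, so the counts of 9 and 4 are not read as a change. The distance to chromosome ends and the share with H3K9ac kept their direction under the alternatives run for them. Pooled counts limit all of this, since replicate error is unknown.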
